A study of Gallus gallus with 8 samples.

Results

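Collagen chain genes were followed in 2 kinds of intervertebral disc (IVD) from the tail of the chicken: discs of the pygostyle, the terminal tail bone that forms as vertebrae fuse, and free caudal discs, which the labels call permanent. The members were every row of the count table whose symbol is COL, a number, A and a number with nothing after it, which gave 41 genes of 24154. RNAseq was done on 4 fusing and 4 free libraries from birds of 10 weeks, with no treatment or transgene in either group. The labels give the breed as white leghorn and the study's methods name another line. Those methods name as many birds as libraries, but no source used here states whether each bird gave discs of both kinds. The p-values therefore measure only the spread between these libraries. The comparison asks how the matrix genes of a disc that is being lost to fusion differ from those of a disc that stays.

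Collagen chains wind into a helix of identical or different chains, so some collagen molecules need several genes. Fibrillar collagens build the load-bearing fibrils, with type I in fibrous tissue and bone, type III in fibrous tissue, and types II and XI in cartilage. FACIT collagens sit on the fibril surface, type X and type VIII form networks, type IV is the core of basement membranes, type VI forms beaded microfibrils around cells, and transmembrane collagens are anchored in the cell membrane. In the disc, the annulus is rich in type I collagen and the inner disc in type II. By class there were 9 fibrillar, 10 FACIT, 3 network, 6 basement membrane, 4 beaded and 4 transmembrane genes. The 5 others (COL7A1, COL15A1, COL18A1, COL26A1 and COL28A1) were placed in none of these 6 classes, of which the beaded one was held to type VI. The count table had no row named COL5A3 or COL11A2 (fibrillar) or COL6A4 or COL6A5 (beaded), so these chains were not measured under those names.

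Total counts were 5682402 to 18434459 in fusing libraries and 12356953 to 18417470 in free libraries. Lists of cell type markers without collagens were measured beside the members, and in bulk tissue fewer cells of a type and less RNA per cell cannot be told apart. Summed levels, in CPM (each count scaled to a common library size by the trimmed mean of M-values, TMM), of the 11 chondrocyte markers in the file overlapped between the tissues, at 16664 to 38436 in fusing and 12785 to 32468 in free discs, so both tissues carried cartilage RNA. Of these markers the regulators SOX5 and SOX9 and the lubricant gene PRG4 were called lower in fusing discs, MATN1 was called higher, and 7 were not called. Of 12 osteoblast markers, 11 were called higher in fusing discs and the sums over the list were 4728 to 6470 against 159.6 to 1488 CPM. SPP1 made up most of each sum, at 2580 to 3898 CPM in fusing and 141.8 to 1052 CPM in free discs. All 9 leukocyte markers and 6 of 9 osteoclast markers were also called higher, and 1 osteoclast marker, CALCR, was called lower. Of 14 markers of fibrous connective tissue and tendon, 9 were called lower and 2 higher, with sums of 7843 to 15913 in fusing and 40669 to 47755 in free discs. Beside these counts, 13.2% of all genes tested were called higher and 9.64% lower. The osteoblast, leukocyte, osteoclast and fibrous tissue sums did not overlap between the tissues. Of the fibrous tissue sums, COMP, which was not called, gave 5269 to 11660 CPM in fusing and 15120 to 18790 CPM in free discs. The part of any of these lists in the collagen differences was not tested. Skeletal muscle markers summed to 936 CPM in fusing replicate 4 and 408 to 535 CPM in free replicates 1, 2 and 4, against 6.96 to 18.6 CPM in the other 4 libraries. Of the 7 notochord and nucleus pulposus markers in the file, 3 passed the filter on low counts and none was called.

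Collagen RNA made up a smaller part of the fusing libraries. Collagen chain genes held 15.3%, 14.6%, 22.5% and 16.6% of all counts in fusing replicates 1 to 4, and 30.4%, 41.2%, 30.9% and 36.1% in free replicates 1 to 4. The means were 17.3% ± 3.62 in fusing and 34.7% ± 5.08 in free discs (SD, n = 4 each), and no fusing library reached the lowest free one. After division by gene length the members made up 5.90 to 11.2% of the fusing and 15.9 to 22.8% of the free libraries.

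The make-up of that collagen RNA differed as well, and this comparison does not depend on how libraries are scaled to each other. Fibrillar chains took 69.8 to 79.0% of collagen counts in fusing discs and 87.2 to 92.9% in free discs. FACIT chains took 11.03 to 15.6% in fusing and 1.45 to 6.62% in free discs. Network chains, nearly all COL10A1 in fusing discs, took 8.53 to 15.8% in fusing and 0.535 to 2.29% in free discs. Beaded chains went the other way, with 0.711 to 1.49% in fusing and 3.33 to 5.89% in free discs. None of these 4 ranges overlapped between the tissues. The shares sum to 100%, so a fall in 1 class raises the others. As a percentage of all library counts, FACIT chains overlapped, at 1.61 to 3.52% in fusing and 0.599 to 2.05% in free discs. On that measure the fibrillar, network and beaded ranges did not overlap. As a percentage of collagen counts, basement membrane chains overlapped, at 0.0705 to 0.151% in fusing and 0.0179 to 0.196% in free discs. These shares are a description of chosen genes and carry no test.

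**Figure D1:**
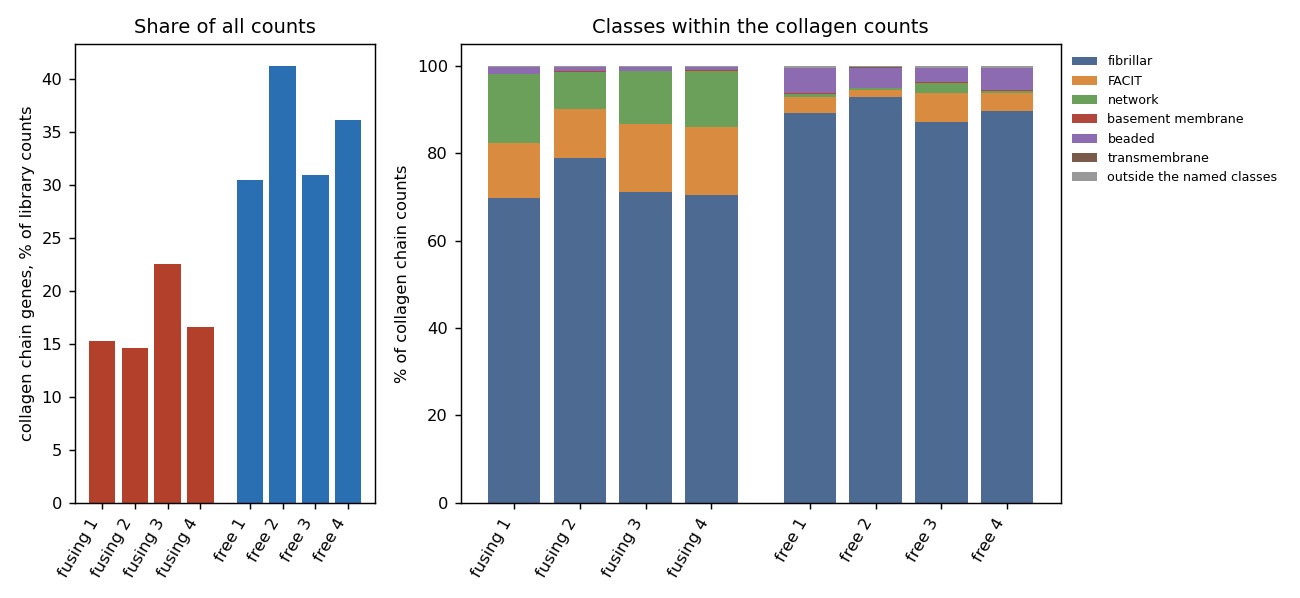
The left panel shows collagen chain genes as a percentage of all counts in each library, and the right panel splits the collagen counts of each library by class; the 4 fusing libraries stand left of the 4 free ones. Collagen genes held 14.6 to 22.5% of fusing and 30.4 to 41.2% of free counts, and the FACIT and network bands are wider in every fusing library than in any free one.

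Per kilobase of transcript, COL2A1 was the most abundant chain in both tissues by means, with 9116 ± 5444 CPM per kb in fusing and 30181 ± 6745 in free discs (SD, n = 4 each). In fusing discs it was followed by COL1A2, COL1A1, COL9A1 and COL10A1, at 3736, 3531, 2558 and 2519 CPM per kb. In free discs it was followed by COL1A1, COL1A2, COL3A1 and COL6A2, at 22378, 19117, 4662 and 1913 CPM per kb. COL10A1 thus ranked 5 in fusing and 15 in free discs, and COL3A1 ranked 10 in fusing and 4 in free discs. Within the members, COL2A1 took a like part per kilobase in both tissues, 23.6 to 43.8% in fusing and 28.8 to 47.1% in free discs. It was exceeded by COL1A2 in fusing replicate 2 (24.2 against 23.6%) and by COL1A1 in free replicate 2 (32.0 against 30.1%).

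Of the 41 members, 37 passed the filter on low counts and were tested with edgeR's quasi-likelihood test, with calls made at an adjusted p below 0.05 and a change of over 2-fold. COL24A1, COL22A1, COL4A5 and COL26A1 were higher in fusing discs, 10.8% of the members tested, beside 13.2% of all 13639 genes tested. A larger number, 13 members or 35.1%, were lower in fusing discs, beside 9.64% of all genes, and 20 were not called. Values did not overlap between tissues for 5 members higher in fusing discs, beside 19.6% of all genes, and for 13 lower ones, beside 20.2%. The median log2 fold change was -0.37 over the members and 0.01 over all genes. The counts depend in part on scaling. With plain library totals in place of TMM, the median moved to 0.70 for all genes and to 0.30 for the members, 11 members were called higher beside 30.6% of all genes, and the same 13 were called lower beside 4.58%. Of the members called, 45.8% were then higher in place of 23.5%, and of all genes called 87.0% in place of 57.7%. Leaving the collagen genes out of the TMM factors changed no call among the members. DESeq2 called 5 members higher and 13 lower, beside 10.6% and 7.31% of all genes, and with the replicate number as a block 6 were higher and 13 lower, beside 13.6% and 9.68%.

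**Figure D2:**
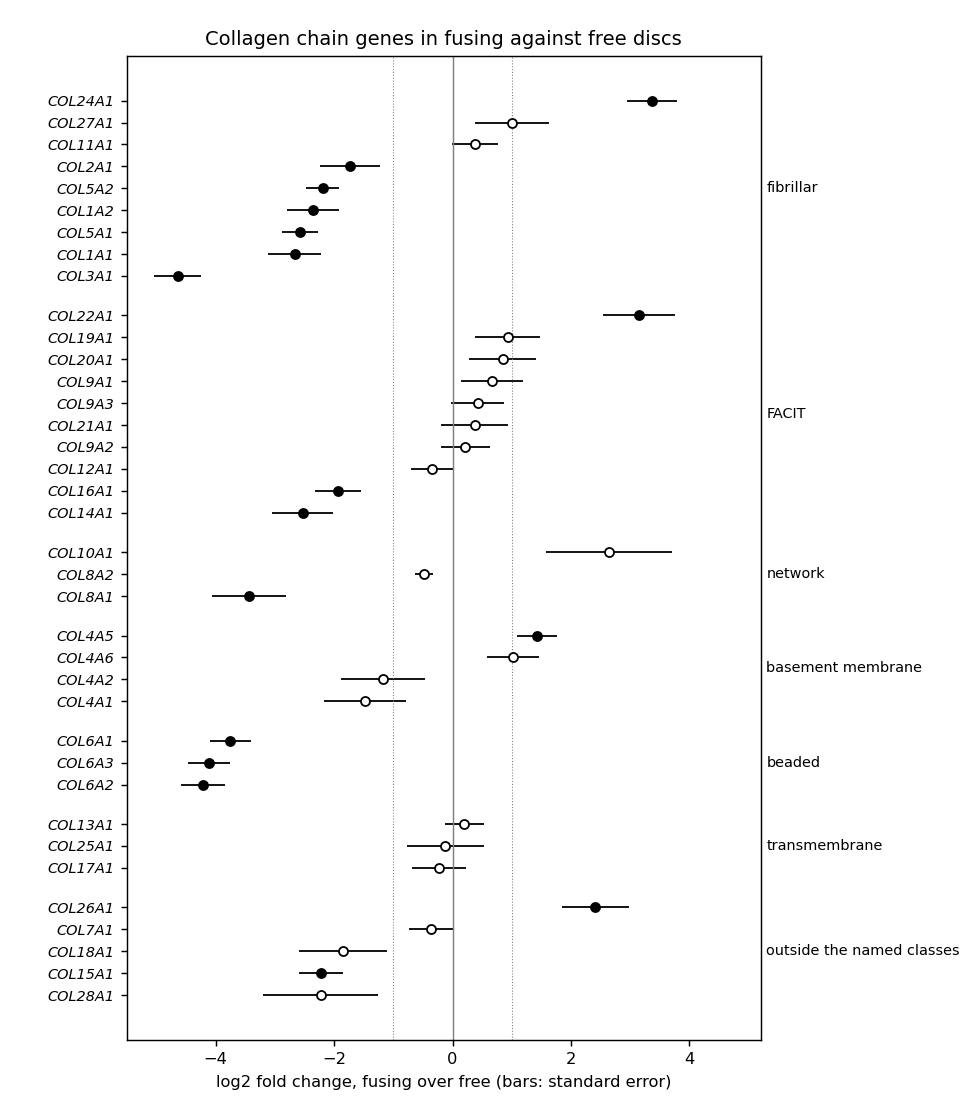
Points give the log2 fold change of each tested collagen chain gene, fusing over free, with bars of 1 standard error, grouped by class; filled points were called, open points were not, and dotted lines mark a 2-fold change. The 3 beaded chains and 6 of 9 fibrillar chains lie left of the dotted line, from -4.64 to -1.73, and the filled points to the right are COL24A1, COL22A1, COL4A5 and COL26A1.

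Fibrillar chains made up 12.5% ± 2.41 of all counts in fusing and 31.2% ± 5.38 in free discs (SD, n = 4 each). Of 9 fibrillar genes, 6 were lower in fusing discs, 1 was higher and 2 were not called, with a median log2 fold change of -2.19. COL3A1, the chain of type III collagen of pliable connective tissue, had 1612, 1134, 1021 and 861 CPM in fusing discs and 32209, 35856, 15996 and 31071 CPM in free discs. It was 24.9-fold lower in fusing discs (log2 fold change -4.64, SE 0.40, adjusted p = 9.34e-05), and every free library lay far above every fusing one.

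The chains of type I collagen, the main fibril of bone and annulus, fell less than COL3A1. COL1A1 had 13887, 20150, 14058 and 17419 CPM in fusing discs and 78421, 172440, 57773 and 106620 CPM in free discs, a log2 fold change of -2.66 (SE 0.45, adjusted p = 0.00171). COL1A2 had 18287, 25391, 14520 and 17291 CPM in fusing discs and 89665, 142870, 48752 and 104940 CPM in free discs, a log2 fold change of -2.36 (SE 0.44, adjusted p = 0.00279). Free replicate 2 was highest and free replicate 3 lowest for both chains. The osteoblast markers, whose cells are known to make type I collagen, were higher in the same fusing libraries in which COL1A1 and COL1A2 were lower.

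Type V collagen is incorporated into type I fibrils and limits their width. COL5A1 had 1235, 1155, 1662 and 1149 CPM in fusing discs and 6950, 10271, 4567 and 9160 CPM in free discs (log2 fold change -2.57, SE 0.31, adjusted p = 0.000332). COL5A2, its partner chain, had 1120, 1052, 739 and 729 CPM in fusing discs and 3706, 5727, 2896 and 4299 CPM in free discs (log2 fold change -2.19, SE 0.28, adjusted p = 0.000418). Both fell in fusing discs, and the COL5A1 to COL1A1 ratio overlapped between tissues, at 0.0310 to 0.0640 in fusing and 0.0322 to 0.0479 in free discs.

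COL2A1, the chain of the cartilage fibril, had 30713, 24668, 85621 and 43115 CPM in fusing discs and 102140, 176740, 168970 and 161690 CPM in free discs. It was 3.31-fold lower in fusing discs (log2 fold change -1.73, SE 0.51, adjusted p = 0.0239), although fusing replicate 3 came close to free replicate 1. As a percentage of raw library counts the tissues overlapped, at 3.41 to 9.76% in fusing and 8.58 to 14.5% in free discs. The call was lost without fusing replicate 1 (log2 fold change -1.59, adjusted p = 0.0740), fusing replicate 2 (-1.53, 0.0555), fusing replicate 4 (-1.70, 0.0848) or free replicate 4 (-1.70, 0.0642), and with no filter on low counts (adjusted p = 0.0541). A row named COL2A1L, which the naming rule leaves out, had 24, 10, 38 and 26 counts in fusing and 0, 0, 1 and 1 counts in free discs, and reads shared between like copies were not counted.

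The other cartilage fibril chains tested were not called. COL11A1, of type XI collagen in the core of the cartilage fibril, averaged 12743 ± 4825 CPM in fusing and 9771 ± 3681 CPM in free discs (SD, n = 4 each) and was not called (log2 fold change 0.38, SE 0.39, adjusted p = 0.467, and called at 1.02, adjusted p = 0.0332 with plain library totals). COL27A1, a fibrillar chain of cartilage, averaged 2121 ± 810 CPM in fusing and 1058 ± 802 CPM in free discs and was not called (1.00, SE 0.63, adjusted p = 0.237). It was called with the replicate number as a block (1.40, adjusted p = 0.0433) and with plain library totals (1.61, adjusted p = 0.0438). The other 16 of 18 alternatives left it uncalled, among them the numbers in the sample codes as a block (2.06, adjusted p = 0.115). COL24A1, known from bone of the mouse embryo, was the only fibrillar chain called higher in fusing discs. It had 21.6, 30.9, 15.5 and 15.5 CPM in fusing discs and 3.49, 0.814, 2.12 and 1.39 CPM in free discs, which is 10.3-fold higher (log2 fold change 3.37, SE 0.42, adjusted p = 0.000409). Its lowest free library rested on 9 counts.

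Relative to COL2A1 in the same library, the type IX chains and COL11A1, which share the cartilage fibril, and COL27A1 had higher levels in every fusing library than in any free one. These ratios, per kilobase, were chosen after the values had been seen and carry no test. COL9A1 was 0.314, 0.327, 0.247 and 0.298 of COL2A1 in fusing discs and 0.0586, 0.0141, 0.0851 and 0.0597 in free discs, 6.52-fold higher by geometric means. COL9A2 was 0.139 to 0.220 of COL2A1 in fusing and 0.0194 to 0.0573 in free discs, and COL9A3 was 0.110 to 0.152 in fusing and 0.00992 to 0.0430 in free discs. COL11A1 was 0.213, 0.212, 0.139 and 0.164 of COL2A1 in fusing discs and 0.0562, 0.0166, 0.0486 and 0.0416 in free discs, 4.84-fold higher. For COL27A1 the ratio was 9.80-fold higher in fusing discs, at 0.0241 to 0.0451 in fusing and 0.000563 to 0.00801 in free discs. Leaving out any single library kept the log2 difference at 2.14 to 3.01 for COL9A1, 1.69 to 2.21 for COL9A2, 1.89 to 2.60 for COL9A3, 1.89 to 2.48 for COL11A1 and 2.45 to 3.73 for COL27A1.

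Among the FACIT genes, 1 of 10 was higher, 2 were lower and 7 were not called, with a median log2 fold change of 0.40. The type IX chains, which decorate type II fibrils, gave no call under TMM. COL9A1 had 7610, 6360, 16663 and 10124 CPM in fusing discs and 4718, 1959, 11347 and 7614 CPM in free discs (log2 fold change 0.67, SE 0.52, adjusted p = 0.343), and was called with plain library totals, where all genes shifted up (1.28, adjusted p = 0.0466). COL9A2 had 2952, 2248, 6625 and 5306 CPM in fusing discs and 3143, 1915, 5401 and 4258 CPM in free discs (0.22, SE 0.42, adjusted p = 0.716). COL9A3 had 2503, 2134, 5392 and 3771 CPM in fusing discs and 2240, 1007, 4177 and 2867 CPM in free discs (0.42, SE 0.44, adjusted p = 0.484). The 3 chains ran together by library, highest in replicate 3 and lowest in replicate 2 of each tissue. Relative to COL9A1 per kilobase, COL9A2 was 0.499 to 0.741 in fusing and 0.673 to 1.38 in free discs, and COL9A3 was 0.444 to 0.511 in fusing and 0.505 to 0.706 in free discs.

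COL22A1, which marks tissue junctions such as that of muscle and tendon, was the FACIT gene called higher in fusing discs. It had 117, 113, 114 and 132 CPM in fusing discs and 9.63, 2.44, 32.5 and 9.01 CPM in free discs (log2 fold change 3.15, SE 0.61, adjusted p = 0.00324). Free replicate 3 was the highest free library, and without it the log2 fold change was 4.07. With each library left out in turn, the log2 fold change was 2.80 to 4.07.

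COL14A1 and COL16A1 fell. COL14A1, which binds type I fibrils in tendon and skin, had 10.0, 2.04, 13.7 and 9.25 CPM in fusing discs and 22.8, 81.5, 45.7 and 56.2 CPM in free discs (log2 fold change -2.53, SE 0.51, adjusted p = 0.00420). COL16A1 had 414, 353, 1119 and 712 CPM in fusing discs and 2276, 3182, 1699 and 2754 CPM in free discs (-1.93, SE 0.39, adjusted p = 0.00400). The close relative of COL14A1, COL12A1, was not called and averaged 719 ± 218 CPM in fusing and 916 ± 374 CPM in free discs (SD, n = 4 each; -0.35, adjusted p = 0.469, and 0.30 with plain library totals, where all genes shifted up). The COL14A1 to COL12A1 ratio per kilobase, chosen after the values had been seen, was 0.00921 to 0.0279 in fusing and 0.0531 to 0.369 in free discs, without overlap. The remaining FACIT genes were low: COL21A1 averaged 11.8 CPM in fusing and 9.14 CPM in free discs, COL20A1 2.07 CPM in fusing and 1.20 CPM in free discs, and COL19A1 1.23 CPM in fusing and 0.647 CPM in free discs, none of them called. COL21A1 was called higher without free replicate 3 (1.21, adjusted p = 0.0458).

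In the network class COL8A1 fell, COL8A2 changed by less than 2-fold and COL10A1 had its higher values in fusing discs without being called. COL10A1 encodes type X collagen, the product of hypertrophic chondrocytes in growth plates. It had 17839, 8861, 23692 and 17200 CPM in fusing discs and 1613, 47.3, 7558 and 1638 CPM in free discs. Every fusing library exceeded every free one, yet the free libraries spread so widely that the gene was not called (6.23-fold, log2 fold change 2.64, SE 1.07, adjusted p = 0.0776). It was called with the replicate number as a block (3.77, adjusted p = 0.0277), with DESeq2 (2.64, adjusted p = 0.0138) and with plain library totals (3.21, adjusted p = 0.0221). It was also called without free replicate 2 (2.22, adjusted p = 0.0301) and without free replicate 3 (3.94, adjusted p = 0.0189). The other 13 of 18 alternatives left it uncalled, with adjusted p up to 0.1695. Among them were limma-voom (3.99, adjusted p = 0.0741) and the numbers in the sample codes as a block (4.81, adjusted p = 0.0572). Relative to COL2A1 per kilobase COL10A1 was 0.437, 0.270, 0.208 and 0.300 in fusing discs and 0.0119, 0.000201, 0.0337 and 0.00762 in free discs.

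The markers of hypertrophic chondrocytes, a list without collagens, ordered the free libraries nearly as COL10A1 did. Their summed levels were 6336, 4529, 5882 and 6435 CPM in fusing discs and 1145, 547.6, 2185 and 998.3 CPM in free discs, with free replicate 3 highest and free replicate 2 lowest for both measures. SPP1 gave 3474, 2580, 2922 and 3898 CPM of the fusing sums. VEGFA ran the other way in free discs, at 195, 366.9, 131.6 and 177.9 CPM, and made up most of the sum in free replicate 2. Every other marker of the list was highest in free replicate 3 and lowest in free replicate 2 among free libraries. The chondrocyte list ordered the free libraries as COL10A1 did, at 23079, 12785, 32468 and 25736 CPM. The osteoblast list ordered them as the hypertrophic list did, but the lists share genes. Of these, SPP1 gave 759.6, 141.8, 1052 and 457.9 CPM of osteoblast sums of 859, 159.6, 1488 and 614 CPM in free discs. That like order is thus not independent. Of the 9 hypertrophic chondrocyte markers, 5 were higher and 1 was lower in fusing discs, beside 13.2% and 9.64% of all genes. The collagenase MMP13 was among the higher ones (log2 fold change 3.45, SE 1.13, adjusted p = 0.0370), and the vascular growth factor VEGFA was the lower one (-3.37, SE 0.40, adjusted p = 0.000327). The list shares ALPL, SP7 and SPP1 with the osteoblast list.

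**Figure D3:**
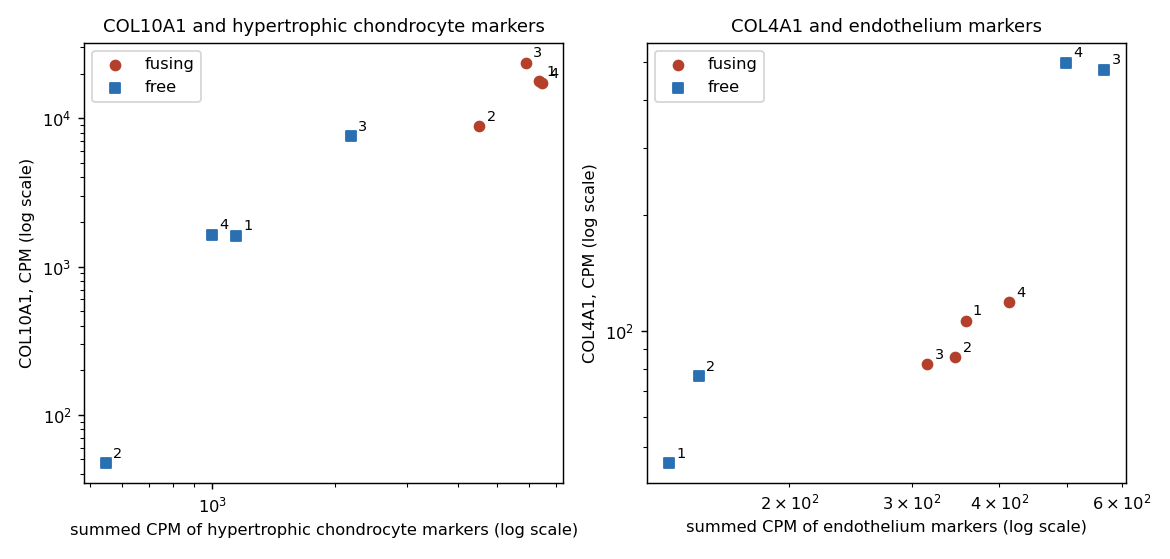
The left panel plots COL10A1 against the summed level of 9 hypertrophic chondrocyte markers, and the right panel COL4A1 against 12 endothelial markers, in CPM on log axes; points are libraries labelled by replicate number, circles fusing and squares free. COL10A1 lies between 8861 and 23692 CPM in fusing libraries and between 47.3 and 7558 CPM in free ones, and COL4A1 is low in free replicates 1 and 2 and high in free replicates 3 and 4.

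COL8A1, a chain of the short-chain type VIII network, had 131, 80.3, 232 and 85.6 CPM in fusing discs and 861, 3375, 641 and 825 CPM in free discs. It was 10.8-fold lower in fusing discs (log2 fold change -3.43, SE 0.63, adjusted p = 0.00249), and without free replicate 2, the highest library, the log2 fold change was -2.56. Its partner COL8A2 had 78.9, 72.1, 57.8 and 60.1 CPM in fusing discs and 97.5, 101, 75.2 and 102 CPM in free discs, and its change was under 2-fold (-0.48, SE 0.15, adjusted p = 0.0271, and 0.23 with plain library totals). Accordingly, the COL8A2 to COL8A1 ratio per kilobase was 0.267 to 0.963 in fusing and 0.0323 to 0.132 in free discs, without overlap.

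Of the type IV genes, 1 of the 4 tested was higher and 3 were not called, with a median log2 fold change of -0.08. COL4A1 and COL4A2 encode the common basement membrane trimer and lie head to head at chr1:140137042-140249110 and chr1:140249172-140391078, with gene starts 62 bases apart (GRCg6a). COL4A1 had 106, 85.6, 82.1 and 119 CPM in fusing discs and 45.4, 76.3, 478 and 499 CPM in free discs (log2 fold change -1.48, SE 0.69, adjusted p = 0.118). COL4A2 had 56.3, 50.8, 48.4 and 61.6 CPM in fusing discs and 16.5, 34.8, 225 and 216 CPM in free discs (-1.18, SE 0.71, adjusted p = 0.218). The fusing libraries lay between a low and a high pair of free libraries for COL4A2 and for COL4A1, and both genes were called lower without free replicate 1 (-1.84, adjusted p = 0.0285 for COL4A1, and -1.55, adjusted p = 0.0475 for COL4A2). Neither was called under any other alternative, and the changes were smaller without free replicate 3 (-1.08 for COL4A1 and -0.72 for COL4A2), without free replicate 4 (-1.03 for COL4A1 and -0.77 for COL4A2), with limma-voom (-0.87 for COL4A1 and -0.46 for COL4A2) and with the replicate number as a block (-0.83 for COL4A1 and -0.48 for COL4A2).

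The same free libraries stood apart in the markers of vessels. Endothelial markers summed to 358, 346, 316 and 413 CPM in fusing discs and 134, 149, 566 and 499 CPM in free discs, and none of the 12 was called (2 were higher with plain library totals). Markers of pericytes and smooth muscle summed to 276, 261, 280 and 389 CPM in fusing discs and 219, 249, 860 and 823 CPM in free discs, and none of 7 was called. COL18A1, the basement membrane collagen that holds endostatin, had 7.83, 15.5, 8.83 and 20.04 CPM in fusing discs and 7.17, 13.7, 82.3 and 84.7 CPM in free discs. COL28A1, known from the peripheral nerve of the mouse, had 9.55, 1.78, 2.74 and 16.7 CPM in fusing discs and 7.04, 4.70, 88.9 and 49.4 CPM in free discs. Neither was called (log2 fold change -1.84, adjusted p = 0.0770 for COL18A1, and -2.23, adjusted p = 0.0994 for COL28A1). COL18A1 was called lower without free replicate 1 (-2.21, adjusted p = 0.0207) or free replicate 2 (-2.15, adjusted p = 0.0448), and COL28A1 without free replicate 2 (-2.60, adjusted p = 0.0495). The changes were smaller without free replicate 3 (-1.43 for COL18A1, and -1.36, adjusted p = 0.285 for COL28A1), without free replicate 4 for COL18A1 (-1.40), and with limma-voom (-1.17 for COL18A1 and -1.41 for COL28A1). The part of vascular RNA in these 4 genes was not tested.

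COL4A5 and COL4A6, another head-to-head pair with starts 521 bases apart on chromosome 4, were scarce. COL4A5 had 5.24, 5.60, 6.77 and 4.12 CPM in fusing discs and 1.03, 1.81, 2.21 and 3.11 CPM in free discs, a rise in fusing discs (log2 fold change 1.42, SE 0.34, adjusted p = 0.00947). COL4A6 averaged 1.76 ± 0.764 CPM in fusing and 0.898 ± 0.398 CPM in free discs (SD, n = 4 each) and was not called (1.02, SE 0.44, adjusted p = 0.0948). Thus within type IV the COL4A1 and COL4A5 changes had opposite signs, although only the second was called. COL4A3 and COL4A4, which overlap each other on chromosome 9, were under the filter with 27 and 43 counts over the fusing libraries and 28 and 26 over the free ones. Their fusing to free ratios were 0.730 (95% exact interval 0.414 to 1.29) for COL4A3 and 1.25 (0.752 to 2.12) for COL4A4, so no difference was detectable at this depth. Such intervals cover counting error only.

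Type VI collagen was the class in which every tested member fell. COL6A1, COL6A2 and COL6A3 encode the chains of the beaded filament that surrounds cells of cartilage and disc. COL6A1 had 470, 282, 465 and 290 CPM in fusing discs and 4722, 6319, 2894 and 6348 CPM in free discs (log2 fold change -3.75, SE 0.34, adjusted p = 0.000112). COL6A2 had 810, 457, 701 and 432 CPM in fusing discs and 11720, 13190, 6203 and 13243 CPM in free discs (-4.21, SE 0.37, adjusted p = 9.77e-05). COL6A3 had 420, 290, 274 and 230 CPM in fusing discs and 4897, 7683, 2934 and 5498 CPM in free discs (-4.11, SE 0.36, adjusted p = 9.58e-05). Free replicate 3 was the lowest free library for all 3 chains and still exceeded the highest fusing library several times over.

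COL6A1 and COL6A2 lie in tandem on the same strand at chr7:6741125-6762197 and chr7:6782416-6808501. The COL6A2 to COL6A1 ratio per kilobase was 1.36, 1.29, 1.20 and 1.18 in fusing discs and 1.97, 1.65, 1.70 and 1.65 in free discs, without overlap. COL6A3, on the same chromosome but apart from that pair, was 0.250 to 0.437 of COL6A1 in fusing and 0.368 to 0.516 in free discs, which overlap. Relative to COL1A1, COL6A1 was 0.0141 to 0.0342 in fusing and 0.0370 to 0.0608 in free discs, without overlap. The fourth type VI gene in the file, COL6A6, was at the edge of detection, with 12, 7, 7 and 11 counts in fusing and 4, 0, 0 and 4 counts in free discs, a ratio of 3.50 (95% exact interval 1.60 to 8.70).

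**Figure D4:**
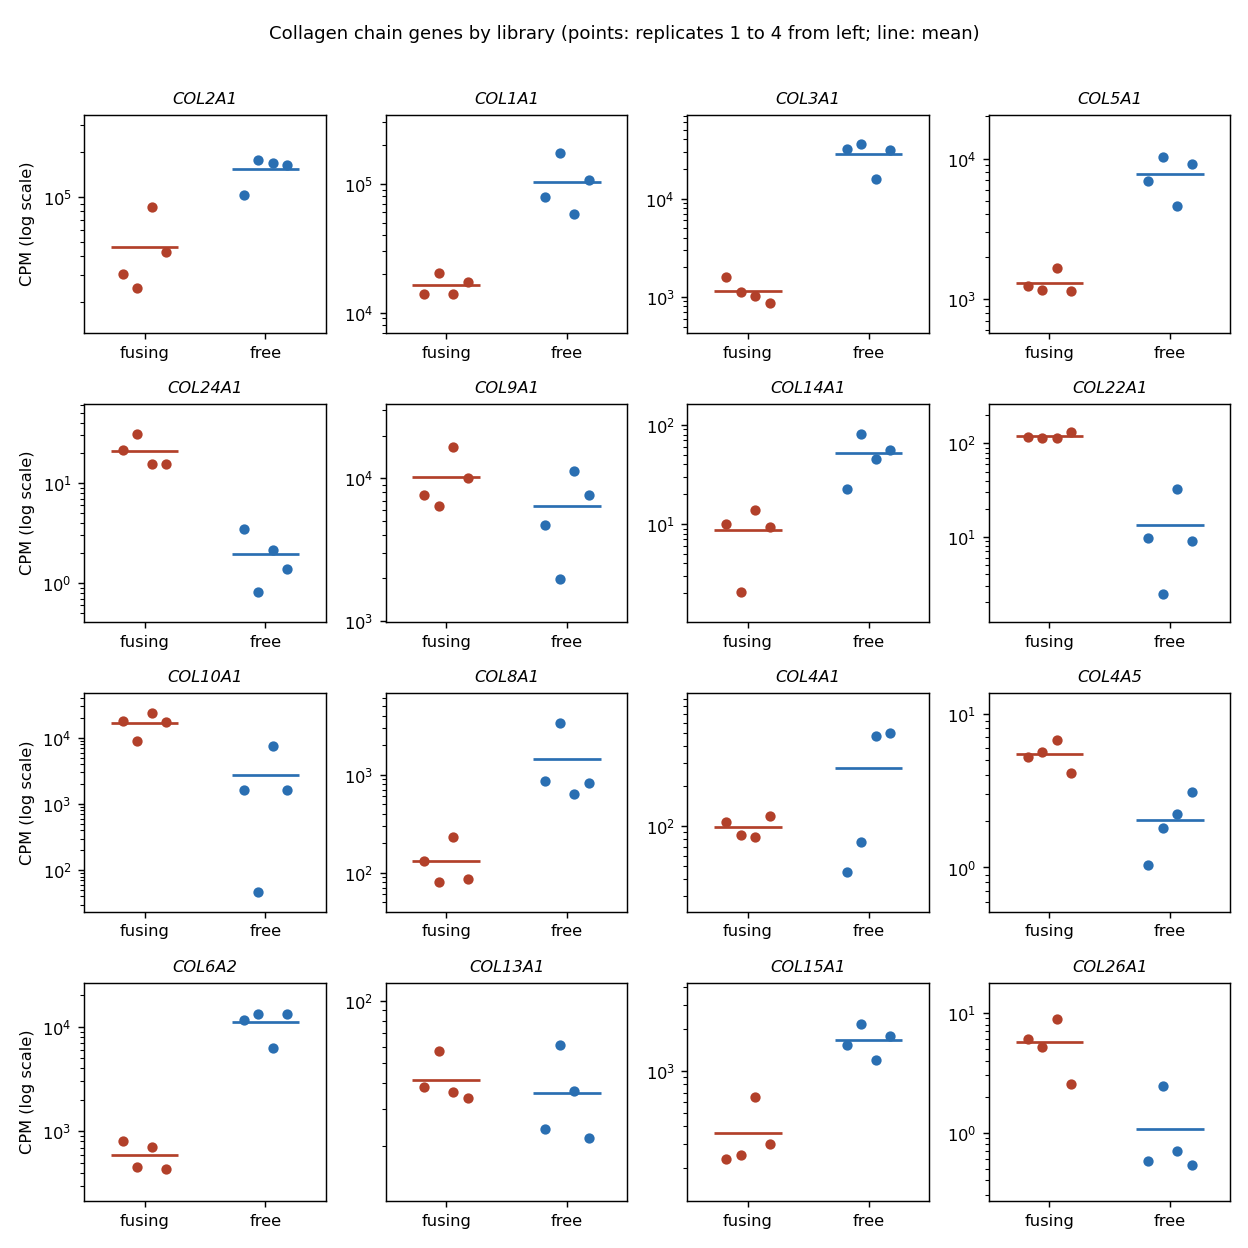
Each panel shows 1 collagen chain gene in CPM on a log scale, with the 4 fusing libraries left of the 4 free libraries, points in replicate order and a line at the mean. COL6A2 has 432 to 810 CPM in fusing and 6203 to 13243 CPM in free discs, COL22A1 has 113 to 132 CPM in fusing and 2.44 to 32.5 CPM in free discs, and COL4A1 shows 2 low and 2 high free libraries.

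Transmembrane collagens gave no call among the 3 tested, with a median log2 fold change of -0.12. COL13A1, found at cell adhesion sites, had 38.6, 57.3, 36.3 and 34.0 CPM in fusing discs and 24.2, 61.2, 37.0 and 21.8 CPM in free discs (log2 fold change 0.20, SE 0.32, adjusted p = 0.659). COL25A1, known from neurons, averaged 11.9 ± 3.75 CPM in fusing and 13.01 ± 9.24 CPM in free discs, and COL17A1, the hemidesmosome collagen of epithelium, averaged 1.19 ± 0.627 CPM in fusing and 1.45 ± 0.561 CPM in free discs (SD, n = 4 each). COL23A1 stayed under the filter with 7 counts in fusing and 9 in free discs.

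Of the 5 members outside the 6 classes, COL15A1 fell, COL26A1 rose and 3 were not called. COL15A1, a basement membrane zone collagen, had 233, 248, 656 and 298 CPM in fusing discs and 1526, 2163, 1209 and 1782 CPM in free discs (log2 fold change -2.22, SE 0.37, adjusted p = 0.00153). COL26A1 had 6.05, 5.22, 8.98 and 2.54 CPM in fusing discs and 0.582, 2.44, 0.707 and 0.536 CPM in free discs (2.41, SE 0.57, adjusted p = 0.00897). Without free replicate 2, which nearly reached the lowest fusing library, its log2 fold change was 3.20. With each library left out in turn, that change was 2.09 to 3.20. COL7A1, of anchoring fibrils, averaged 3.54 ± 0.642 CPM in fusing and 4.59 ± 2.55 CPM in free discs and was not called. COL15A1 and COL18A1 are close relatives, and the high free libraries of COL18A1, replicates 3 and 4, were the lowest and the next to highest for COL15A1.

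Of the 9 ratios between partner chains of a collagen type, 6 overlapped between the tissues. Of these 6 ratios, COL1A2 to COL1A1 was higher in the fusing library of all 4 same-numbered pairs. COL9A2 to COL9A1, COL9A3 to COL9A1 and COL6A3 to COL6A1 were lower in the fusing library of all 4. This was not tested, and whether same-numbered libraries belong together is not known. The sample codes carry different numbers within the replicate 2 pair and within the replicate 3 pair. The COL1A2 to COL1A1 ratio per kilobase was 1.21, 1.16, 0.949 and 0.912 in fusing discs and 1.05, 0.761, 0.775 and 0.904 in free discs, which overlap. The COL5A2 to COL5A1 ratio was 0.565 to 1.16 in fusing and 0.596 to 0.806 in free discs. The COL4A2 to COL4A1 ratio was 0.621 to 0.711 in fusing and 0.434 to 0.563 in free discs, without overlap, and the COL4A6 to COL4A5 ratio overlapped. Among ratios between different collagens, COL3A1 to COL1A1 was 0.0872, 0.0423, 0.0546 and 0.0371 in fusing discs and 0.309, 0.156, 0.208 and 0.219 in free discs, 4.14-fold lower by geometric means. COL12A1 to COL1A1 was 0.00780 to 0.0249 in fusing and 0.000911 to 0.00757 in free discs, without overlap, and COL16A1 to COL1A1 overlapped at 0.0145 to 0.0660 in fusing and 0.0153 to 0.0244 in free discs. The ratios of COL5A1, COL6A1, COL12A1 and COL16A1 to COL1A1 were also chosen after the values had been seen. COL2A1 to COL1A1, a common measure of cartilage against fibrous matrix, overlapped at 1.13 to 5.596 in fusing and 0.942 to 2.69 in free discs. It was higher in the fusing library of all 4 same-numbered pairs.

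**Figure D5:**
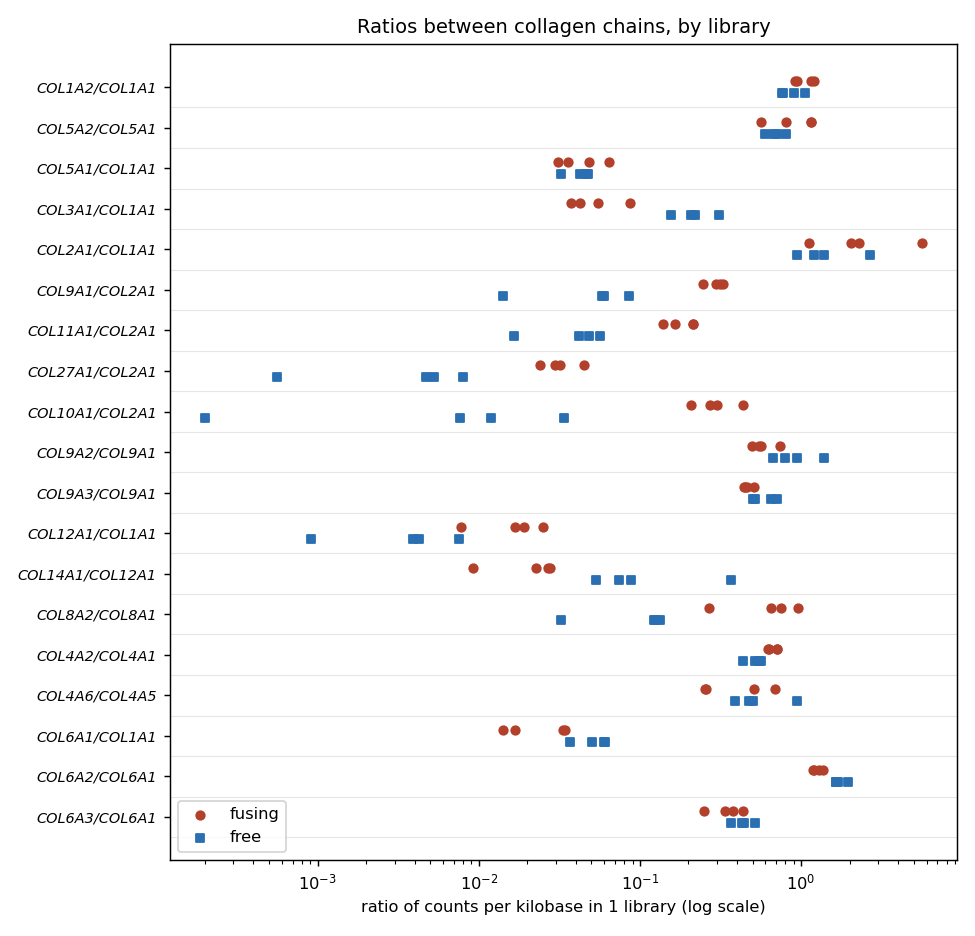
Ratios of counts per kilobase between collagen chain genes are shown for each library on a log axis, with fusing libraries as circles above and free libraries as squares below. COL1A2 to COL1A1 overlaps between tissues near 1, COL9A1 to COL2A1 is 0.247 to 0.327 in fusing and 0.0141 to 0.0851 in free discs, and COL10A1 to COL2A1 spans 0.000201 to 0.0337 in free discs.

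The libraries of each tissue differed among themselves in a pattern that ran over the classes. Free replicate 2 was the lowest free library for 13 of the 37 tested members, among them COL9A1, COL9A2, COL9A3, COL10A1, COL11A1 and COL27A1, and the highest for 15, among them COL1A1, COL1A2, COL3A1, COL8A1 and COL14A1. It was also the highest free library for COL2A1. Free replicate 3 was nearly the reverse, highest for 11 members including the type IX chains and COL10A1, and lowest for 14 including all 3 tested type VI chains. Among fusing discs, replicate 3 was the highest for 17 members, including COL2A1, COL9A1, COL10A1 and COL11A1, and replicate 2, the library with the fewest counts, was the lowest for 19.

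Of 26 tested genes for collagen modification, folding, trimming and cross-linking, 10 or 38.5% were lower in fusing discs, beside 9.64% of all genes, and 4 or 15.4% were higher, beside 13.2%, with a median log2 fold change of -0.85 beside 0.01 for all genes, and their sum was 8242 to 15580 CPM in fusing and 17608 to 22715 CPM in free discs. With plain library totals 7 were lower and 5 higher, and the median was -0.19 beside 0.70 for all genes. The largest changes were in lysyl oxidase relatives that cross-link collagen: LOXL3 was lower (log2 fold change -3.10, SE 0.41, adjusted p = 0.000550) and LOXL4 was higher (3.90, SE 0.76, adjusted p = 0.00336). Of 8 tested collagen receptors, 3 or 37.5% were lower, beside 9.64% of all genes, and none was higher, beside 13.2%, and with plain library totals none was called. The lower ones included the uptake receptor MRC2 (-1.52, SE 0.31, adjusted p = 0.00444) and DDR2, a receptor kinase for fibrillar collagen (-1.39, SE 0.22, adjusted p = 0.00133).

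Several other members are neighbours in the genome. COL5A2 and COL3A1 lie tail to tail at chr7:421873-611515 and chr7:618383-681637, with ends 6868 bases apart, and both fell. COL9A1 and COL19A1 overlap tail to tail on chromosome 3, and neither was called. COL9A2 and COL16A1 lie 86245 bases apart on chromosome 23, where COL16A1 fell and COL9A2 was not called. Reads were counted without strand, and those assigned to several genes were left out. Reads in the stretch that COL9A1 and COL19A1 share would thus count for neither gene. The exons of COL11A1, COL27A1, COL9A3, COL8A1, COL8A2, COL6A3, COL18A1, COL26A1, COL4A3, COL4A4 and COL23A1 also overlap exons of other genes.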

How the data were processed

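RNA of dissected discs was made into polyA-selected, unstranded libraries, 4 fusing and 4 free. According to the paper's supplement, the discs taken from each pygostyle combined several stages of maturation. The authors aligned reads to GRCg6a with STAR and counted them per gene with featureCounts, and reads assigned to several genes were left out. The deposited values are raw counts, not normalized. Depth was 5682402 to 18434459 counts per library, so only the rarest members are limited by counting error. Levels are CPM, counts over TMM library sizes. Genes were kept with edgeR's filterByExpr (minimum count 10, minimum total 15), leaving 13639, and fitted with edgeR 4.0.16 (R 4.3.3) on tissue, with Benjamini-Hochberg adjustment over all genes; SE is the log2 fold change over the root of F. Ratios and shares are descriptions. The members and lists were chosen with earlier results of these data known. Values per library are given for the most abundant member of a class, the 2 largest called changes each way, and partner chains; other members were named as the account required. Alternatives were other scalings, filters, DESeq2 1.42.0, limma 3.58.1, blocks, and each library left out. Libraries with the same replicate number in their titles deviated together weakly (correlations 0.242, 0.159, 0.115 and 0.253). Fusing replicate 3 correlated most with free replicate 4, so title numbers do not settle which libraries pair. The script was tested on simulated data. Chromosome names were read from sequence accessions of the file. Sequences are not shown.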

Additional observations from a re-analysis of the deposited data

Results flagged for a closer look

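In 6 of 74 groups of 4 libraries, 1 library stood apart from the other 3 by more than Dixon's 95% critical value, and chance flags about 1 in 20. Fusing replicate 3 was apart in 3 genes: COL5A1 had 1662 CPM there against 1149 to 1235 in the other fusing libraries, COL15A1 655.6 against 232.9 to 298.3, and COL21A1 9.667 against 12.42 to 12.61. Free replicate 2 was apart in COL8A1, with 3375 CPM against 640.6 to 860.9 in the other free libraries, and in COL26A1, with 2.441 against 0.5365 to 0.7072. Free replicate 3 was low in COL8A2, with 75.23 CPM against 97.52 to 101.7.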

How the results depend on the processing

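The count of members called higher was 4 and that called lower 13. With plain library totals 11 were higher. Leaving out each library gave 4 to 6 higher and 12 to 16 lower, and over all 19 alternatives the lower count was 12 to 16. The share of counts differed by -17.4 percentage points, by -11.2 per kilobase, and by -19.2 to -15.2 with each library left out. The replicate number as a block gave 6 higher, adding COL10A1 and COL27A1, and 13 lower, and changed no other call. The numbers in the sample codes are shared by 3 pairs only (correlations 0.242, -0.061 and 0.253). They join replicate 1 and replicate 4 of each tissue, as the titles do, and fusing replicate 3 with free replicate 2. No source used here states whether these numbers mark birds. With them as a block, COL4A5 (1.53, adjusted p = 0.0591) and COL2A1 (-1.56, adjusted p = 0.191) were not called, COL21A1 was (1.35, adjusted p = 0.0401), and COL4A1 was -0.22, COL28A1 was -0.66, and the signs of COL4A2 (0.16), COL12A1 (0.093) and COL25A1 (0.83) turned. Unlike with the title numbers, COL10A1 (4.81, adjusted p = 0.0572) and COL27A1 (2.06, adjusted p = 0.115) were not called with this block.

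Signs that turned were of uncalled members. With library totals they were COL12A1 (0.30), COL8A2 (0.23), COL17A1 (0.47), COL25A1 (0.50) and COL7A1 (0.33), where all genes shifted by 0.69. COL25A1 also turned with limma-voom (0.49) and the title block (0.23). With single libraries left out, the range was -0.52 to 0.29 for COL25A1 (positive without fusing replicate 2 or free replicate 3), -0.090 to 0.46 for COL9A2 (negative without fusing replicate 3 or free replicate 2), -0.49 to 0.032 for COL17A1 (positive without fusing replicate 2 or free replicate 2) and -0.54 to 0.060 for COL7A1 (positive without free replicate 4). The COL5A1 to COL1A1 ratio had a log2 difference of 0.037, with a range of -0.154 to 0.194. Causes were not tested. For the marker, processing and receptor lists together, 41 genes were higher and 29 lower, beside 13.2% and 9.64% of all genes. With library totals, where all genes shifted up, 54 were higher and 20 lower, beside 30.6% and 4.58% of all genes. The list values are counts and not shares. By list under TMM, the share called higher ran from 0% (endothelium among others) to 100% (leukocyte). The share called lower ran from 0% (endothelium among others) to 64.3% (fibrous connective tissue and tendon). The COL9A1, COL9A2, COL9A3, COL11A1, COL27A1, COL5A1, COL12A1, COL6A1, COL16A1 and COL14A1 ratios to COL2A1, COL1A1 or COL12A1 were chosen after seeing the data.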
